A study of Homo sapiens with 16 samples.

Results

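Oxidative phosphorylation (OXPHOS) subunits encoded in the nucleus were followed in the transcriptome of MDA-MB-231, a cell line from a human breast adenocarcinoma. Members were taken by symbol from the deposited expression table. Symbols starting NDUFA, NDUFB, NDUFC, NDUFS or NDUFV, other than the NDUFAF assembly factors, gave complex I, SDHA to SDHD complex II, symbols starting UQCR complex III, COX4 to COX8 complex IV and ATP5 complex V. Of 19468 genes listed, 88 matched, and 83 of these reached an FPKM (fragments per kilobase of gene, scaled by the mapped fragments of the library) of at least 1 in at least 4 of 16 libraries. The 83 members were among 12604 genes that passed the same filter, with 39 in complex I, 4 in complex II, 9 in complex III, 13 in complex IV and 18 in complex V. The 5 symbols that did not pass were NDUFC2-KCTD14, COX4I2, COX6A2, COX6B2 and COX8C.

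Total RNA was sequenced after removal of ribosomal RNA in 4 groups of 4 libraries. All cells carried the genotype given as WT. Ancestral cells were sequenced from both soft and stiff ECM, soft-selected cells from soft ECM, and stiff-selected cells from stiff ECM. The gels were of polyacrylamide carrying type I collagen, and the selected populations had been passaged on theirs for 75 d. The stiffness is stated as 1 kPa for soft and 308 kPa for stiff, although the deposited columns of both stiff groups carry 3 kPa in their names. The comparisons ask how transcript levels differ after long culture on 1 stiffness, between both selected populations, and between stiffnesses in ancestral cells. Whether the libraries of a group stem from separate cultures is not said in the sources, so that p-values describe the spread among these libraries, which may be technical.

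Oxidative phosphorylation makes ATP at the inner mitochondrial membrane. Complex I takes electrons from NADH and complex II takes them from succinate. They pass through coenzyme Q to complex III and through cytochrome c to complex IV, which reduces oxygen, while complexes I, III and IV pump protons that drive ATP synthesis by complex V. Each of complexes I, III, IV and V combines nuclear-encoded subunits with a few encoded by mitochondrial DNA, whereas complex II is wholly nuclear-encoded. The 13 mitochondrially encoded subunits had 0 rows in the table and were not analysed here. Of the 83 members, 77 are taken here as structural subunits of the complex their symbol names. The others are NDUFA4 and NDUFA4L2, which associate with complex IV, the paralogue UQCRHL, the supercomplex factor COX7A2L, the readthrough ATP5J2-PTCD1, and ATP5S, an older symbol of a gene that encodes no subunit.

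Promoters of nuclear OXPHOS genes are known for sites of NRF1, of ETS factors such as GABPA, of YY1 and of SP1. The 250 bases before the annotated start were available from RefSeq (GRCh38.p14) for 66 of the 83 members. They were searched on both strands for CCGGAAG (ETS), AANATGGCG (YY1), GGGCGG (SP1) and the NRF1 motif. Matches of the NRF1 motif are the longest runs of capitals in the sequences shown here. Such a match is a description of letters in this window and not a binding site. The NRF1 letters were found in 13 members (19.7%), against 5.53% of all 27305 promoters and 10.46% of 10370 promoters of genes tested. The ETS letters were found in 16 members (24.24%), against 8.82% and 16.07%, and the SP1 letters in 35 (53.03%), against 42.31% and 67.0%. The YY1 letters were found in 2 members (3.03%), against 1.4% and 2.28%, and 17 members held none of these motifs. Complex IV had the NRF1 letters in 0 of 11 promoters, complex I in 5 of 34, complex II in 2 of 3, complex III in 3 of 7 and complex V in 3 of 11.

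The promoters of 6 members are shown without the start itself, with matches in capitals, because these members carry the differences described below. They are the 3 members on chromosome X, the 2 members that differed between the selected populations, and UQCR11, the member of complex III with the lowest fold change after selection on soft ECM. In these windows no match of one motif overlapped a match of another. COX7B lies at chrX:77899218-77899467 (plus strand), NDUFA1 at chrX:119871582-119871831 (plus) and NDUFB11 at chrX:47144703-47144952 (minus). UQCR11 lies at chr19:1605463-1605712 (minus), SDHD at chr11:112086623-112086872 (plus) and ATP5O at chr21:33915805-33916054 (minus). The sequences follow from 5′ to 3′ on the strand of the gene.
COX7B: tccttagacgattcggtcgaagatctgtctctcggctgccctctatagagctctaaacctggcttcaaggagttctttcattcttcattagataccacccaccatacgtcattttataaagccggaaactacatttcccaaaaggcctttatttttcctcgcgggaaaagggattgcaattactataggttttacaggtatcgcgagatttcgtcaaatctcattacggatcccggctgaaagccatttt
NDUFA1: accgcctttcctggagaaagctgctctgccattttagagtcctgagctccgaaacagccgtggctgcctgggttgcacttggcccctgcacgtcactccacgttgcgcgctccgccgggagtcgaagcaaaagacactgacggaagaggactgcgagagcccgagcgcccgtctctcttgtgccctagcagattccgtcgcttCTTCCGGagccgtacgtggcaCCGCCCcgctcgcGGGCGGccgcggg
NDUFB11: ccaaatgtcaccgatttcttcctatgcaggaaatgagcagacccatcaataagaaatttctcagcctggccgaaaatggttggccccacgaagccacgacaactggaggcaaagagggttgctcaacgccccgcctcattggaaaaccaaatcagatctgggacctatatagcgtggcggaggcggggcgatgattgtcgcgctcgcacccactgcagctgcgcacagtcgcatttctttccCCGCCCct
UQCR11: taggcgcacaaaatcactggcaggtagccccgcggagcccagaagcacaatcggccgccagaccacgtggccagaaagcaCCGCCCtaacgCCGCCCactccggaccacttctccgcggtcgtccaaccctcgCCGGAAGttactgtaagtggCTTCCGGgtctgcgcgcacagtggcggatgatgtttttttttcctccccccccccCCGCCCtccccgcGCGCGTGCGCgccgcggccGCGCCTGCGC
SDHD: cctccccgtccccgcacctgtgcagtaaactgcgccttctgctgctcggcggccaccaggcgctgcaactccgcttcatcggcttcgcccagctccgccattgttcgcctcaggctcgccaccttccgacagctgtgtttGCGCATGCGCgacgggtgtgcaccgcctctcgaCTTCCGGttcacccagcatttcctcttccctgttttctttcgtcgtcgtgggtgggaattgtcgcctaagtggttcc
ATP5O: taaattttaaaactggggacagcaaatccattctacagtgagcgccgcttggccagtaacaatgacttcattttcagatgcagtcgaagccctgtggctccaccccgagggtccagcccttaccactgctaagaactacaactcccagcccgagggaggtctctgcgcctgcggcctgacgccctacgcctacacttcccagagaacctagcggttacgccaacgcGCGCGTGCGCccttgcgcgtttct
COX7B held none of the motifs, and NDUFA1 held the ETS letters and the SP1 letters. SDHD held the NRF1 and ETS letters, ATP5O the NRF1 letters alone, and UQCR11 each of NRF1, ETS and SP1 more than once. Of the 13 members with the NRF1 letters, 4 were lower after selection on soft ECM at the threshold given below, against 19 of 53 without them, and on stiff ECM 0 of 13 were lower against 9 of 53. With the ETS letters 6 of 16 were lower on soft ECM against 17 of 50 without, and on stiff ECM 1 of 16 against 8 of 50. With the SP1 letters it was 11 of 35 against 12 of 31 on soft ECM and 5 of 35 against 4 of 31 on stiff ECM. Over all genes tested, 15.4% were lower on soft ECM and 10.8% on stiff ECM. These splits by motif are a description with no test.

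Transcripts of all members together made up 1.98% ± 0.0684 (SD, n = 4) of the summed FPKM in the ancestral libraries on soft ECM and 1.89% ± 0.0514 on stiff ECM. The share was 1.75% ± 0.0537 in soft-selected and 1.78% ± 0.067 in stiff-selected libraries. Summed FPKM was lowest for complex II in every group. It was highest for complex IV in ancestral cells, while complexes IV and V differed by less than their SD in soft-selected cells (3715 ± 194 and 3743 ± 237) and in stiff-selected cells (3908 ± 250.2 and 3747 ± 229). The complex IV sum was 5112, 4554, 4712 and 4450 in the 4 ancestral libraries on soft ECM and 3944, 3742, 3704 and 3471 in the 4 soft-selected libraries. Every soft-selected library lay under every ancestral library on soft ECM, and the same held for complex I (ancestral 3699 to 4088, soft-selected 3223 to 3434) and complex III (1552 to 1772 against 1300 to 1417). The sums of complex II (421 to 449 against 390 to 444) and complex V (4000 to 4252 against 3539 to 4081) overlapped between these groups. On stiff ECM the ranges of ancestral and stiff-selected libraries overlapped for all 5 complexes, for complex II only at their ends (406.3 to 449.1 against 448.9 to 459.1). These sums are a description with no test, and the level of COX8A alone, at 790.5 to 1320 FPKM, weighs on that of complex IV.

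**Figure D1:**
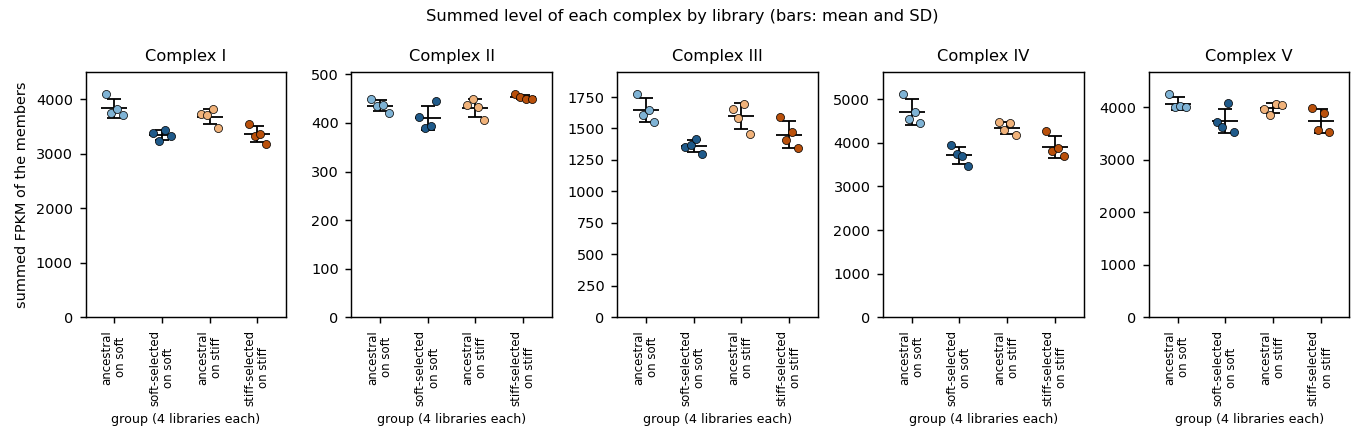
Summed FPKM of the members of each complex (vertical axes from 0) in every library of the 4 groups, with the mean and SD of each group. For complex IV the 4 soft-selected libraries lie between 3471 and 3944, all under the ancestral libraries on soft ECM at 4450 to 5112, whereas the values of complex V overlap.

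Genes were tested with limma on log2(FPKM + 1), with all libraries in 1 fit, and a gene counts as called where its Benjamini-Hochberg adjusted p over all 12604 genes is under 0.01. A log2 fold change on this scale understates the change of genes with few reads. Reads recovered from the FPKM values numbered 43475904 to 55473023 per ancestral library, and 34284794 to 44279020 per selected library. These are reads counted in the listed genes, so that sequencing depth itself is not known from them. The ranges overlapped at their ends, and the selected libraries mostly held fewer such reads. The names of the selected libraries begin with another code than those of the ancestral libraries. What the code stands for and selection can therefore not be told apart. Of markers taken to be high in this line, VIM was at 1940 to 2433 FPKM. Of 5 taken to be low or absent, ESR1, PGR and CDH1 stayed under 1 FPKM (at most 0.0777, 0.01804 and 0.6873), whereas EPCAM was at 7.04 to 14.12 FPKM and ERBB2 at 36.3 to 43.06 FPKM. In bulk RNA, fewer cells of a type and less RNA per cell cannot be told apart.

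A minority of OXPHOS subunits were called lower after selection on soft ECM, and no member was called higher. The log2 fold change was negative in 61 of 83 members, beside 5639 of 12604 genes tested, a count of signs that was not tested. Of 83 members 27 were lower and 0 higher in soft-selected than in ancestral cells on soft ECM, where 15.4% of all genes tested were lower and 21.5% higher (36.9% in either direction). The 27 lower members are 32.5% of all members. At an unadjusted p under 0.05, 47 members (56.6%) differed in either direction, beside 57.4% of all genes. Voom on the recovered reads called 26 members lower with total library sizes (31.3%, beside 15.6% of all genes) and 32 with median of ratios (38.6%, beside 18.5%), and 0 higher. The lower members were 13 of 39 in complex I, 1 of 4 in complex II, 3 of 9 in complex III, 7 of 13 in complex IV and 3 of 18 in complex V, the last being 16.67% and near the background. The median log2 fold change was −0.34 in complex IV, −0.21 in complex I, −0.16 in complex III, −0.12 in complex V and −0.01 in complex II, against 0.04 over all genes tested. The changes were moderate, with log2 fold changes of the called members between −0.76 and −0.24, and 4 of the 27 reached 1.5-fold.

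**Figure D2:**
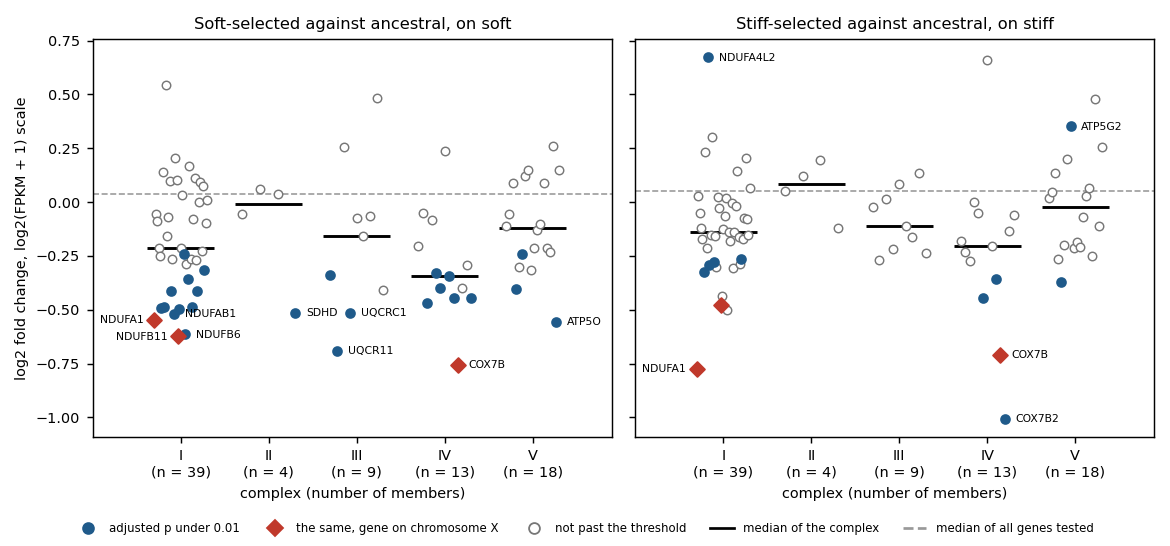
Log2 fold change of each member by complex after selection on soft (left) and stiff (right) ECM, with called members filled, chromosome X members as red diamonds, and medians of the complex (solid) and of all genes (dashed) as lines. On soft ECM 27 members are lower and 0 higher, with the lowest complex median in complex IV (−0.34), and on stiff ECM 11 (COX7B2 included) are lower and 2 higher.

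In complex I, the NADH dehydrogenase, called members lay in both the membrane arm and the matrix arm. In the membrane arm they were 5 of 11 subunits of the distal part and 3 of 9 of the proximal part. In the matrix arm they were 2 of 9 accessory subunits and 1 of the 7 nuclear-encoded core subunits. These core subunits bind the flavin and iron-sulfur clusters or form the quinone site. Over all genes tested 15.4% were lower in this comparison, and the counts by part were not tested against each other. NDUFA1 and NDUFB11 of the membrane arm lie on chromosome X, which is described below. NDUFAB1, the mitochondrial acyl carrier protein, and NDUFA4 were also lower. NDUFB11, a membrane arm subunit, measured 197, 180, 183 and 189 FPKM in ancestral cells on soft ECM and 122, 116, 119 and 129 in soft-selected cells. The groups did not overlap, and the log2 difference between them was −0.62, with an SE of 0.06 (limma adjusted p = 7e-07). NDUFB6, from the same arm, measured 84.2, 65.3, 79.2 and 60.1 FPKM against 47.9, 52.9, 44.4 and 41.4, again with no overlap (−0.61 ± 0.15, limma adjusted p = 0.0025).

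NDUFV1, which holds the flavin that accepts electrons from NADH, was the core subunit that was called. It measured 78.8, 72.6, 75.4 and 65.9 FPKM in ancestral and 65.8, 54.3, 56.5 and 57.8 in soft-selected cells. The highest soft-selected library lay just under the lowest ancestral library, and the log2 fold change was −0.32 ± 0.07 (limma adjusted p = 0.0019). Among core subunits that did not pass the threshold, log2 fold changes were −0.27 for NDUFS3 (limma adjusted p = 0.011) and −0.23 for NDUFS7 (0.02), −0.10 for NDUFV2, −0.08 for NDUFS1 and 0.07 for NDUFS8. Core subunits had a median of −0.10, and the distal membrane arm one of −0.24, and this difference was not tested. The smallest fold change among called members of complex I was that of NDUFB5, at −0.24 ± 0.05 (limma adjusted p = 0.00089).

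In complex II, succinate dehydrogenase, 1 member was called. SDHD, which with SDHC anchors the enzyme in the membrane, measured 99.8, 92.5, 94.6 and 85.4 FPKM in ancestral cells on soft ECM and 72.6, 58.7, 60.6 and 68.3 in soft-selected cells. All soft-selected libraries lay under all ancestral ones (−0.51 ± 0.08, limma adjusted p = 8.2e-05). The other anchor, SDHC, had a log2 fold change of 0.04 ± 0.07, and the catalytic subunits SDHA (flavoprotein) and SDHB (iron-sulfur protein) had −0.05 ± 0.06 and 0.06 ± 0.06. Their group ranges overlapped on soft ECM.

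In complex III, the cytochrome bc1 complex, UQCR11, a small subunit, had the lowest fold change. It measured 466, 379, 416 and 332 FPKM in ancestral cells on soft ECM and 286, 271, 235 and 196 in soft-selected cells, with no overlap (−0.69 ± 0.13, limma adjusted p = 0.00025). UQCRC1, a core protein, measured 135, 114, 127 and 114 FPKM against 95.6, 86.4, 83.4 and 77.3 (−0.51 ± 0.07, limma adjusted p = 1e-05). The other core protein UQCRC2 (−0.07 ± 0.05) and the Rieske iron-sulfur protein UQCRFS1 (−0.16 ± 0.06, limma adjusted p = 0.05) were not called. UQCR10, another small subunit, was lower by −0.34 ± 0.09 (limma adjusted p = 0.0047).

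Complex IV, cytochrome c oxidase, had the largest share of called members, 7 of 13, with no correction for coding length. COX7B, a small membrane subunit, measured 399, 359, 393 and 347 FPKM in ancestral cells on soft ECM and 213, 211, 239 and 223 in soft-selected cells. The groups were far apart, and its log2 fold change of −0.76 ± 0.07 (limma adjusted p = 1.4e-07) was the lowest of all members in this comparison. COX8A, a small subunit and the member with the highest level, measured 1320, 1231, 1218 and 1215 FPKM against 1131, 790.5, 958.8 and 815.3 (−0.45 ± 0.10, limma adjusted p = 0.00097). COX5B (−0.47 ± 0.11) and COX7A2L, which helps complexes III and IV assemble into supercomplexes (−0.45 ± 0.06), were lower too, as were COX6C (−0.40), COX7A2 (−0.34) and COX6B1 (−0.33). COX4I1 and COX5A, nuclear-encoded subunits that join early in assembly, did not pass the threshold (−0.21 ± 0.09 and −0.05 ± 0.09).

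In complex V, the ATP synthase, called members lay in the peripheral stalk (2 of 4) and F1 (1 of 5), with 0 of 3 c ring genes and 0 of 4 small membrane subunits. ATP5O, the stalk subunit that holds the F1 head (the oligomycin sensitivity conferring protein), measured 135, 132, 134 and 130 FPKM in ancestral cells on soft ECM and 89.3, 82.6, 100 and 89 in soft-selected cells. The groups stood far apart relative to their spread (−0.56 ± 0.06, limma adjusted p = 6.7e-07). ATP5D, the delta subunit of F1, was lower by −0.40 ± 0.10 and ATP5F1, a stalk subunit, by −0.24 ± 0.07. The catalytic subunit ATP5B had a log2 fold change of −0.05 ± 0.05 and its partner ATP5A1 one of −0.11 ± 0.06 (limma adjusted p = 0.11). ATP5C1, the rotating shaft, had 0.09 ± 0.05.

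**Figure D3:**
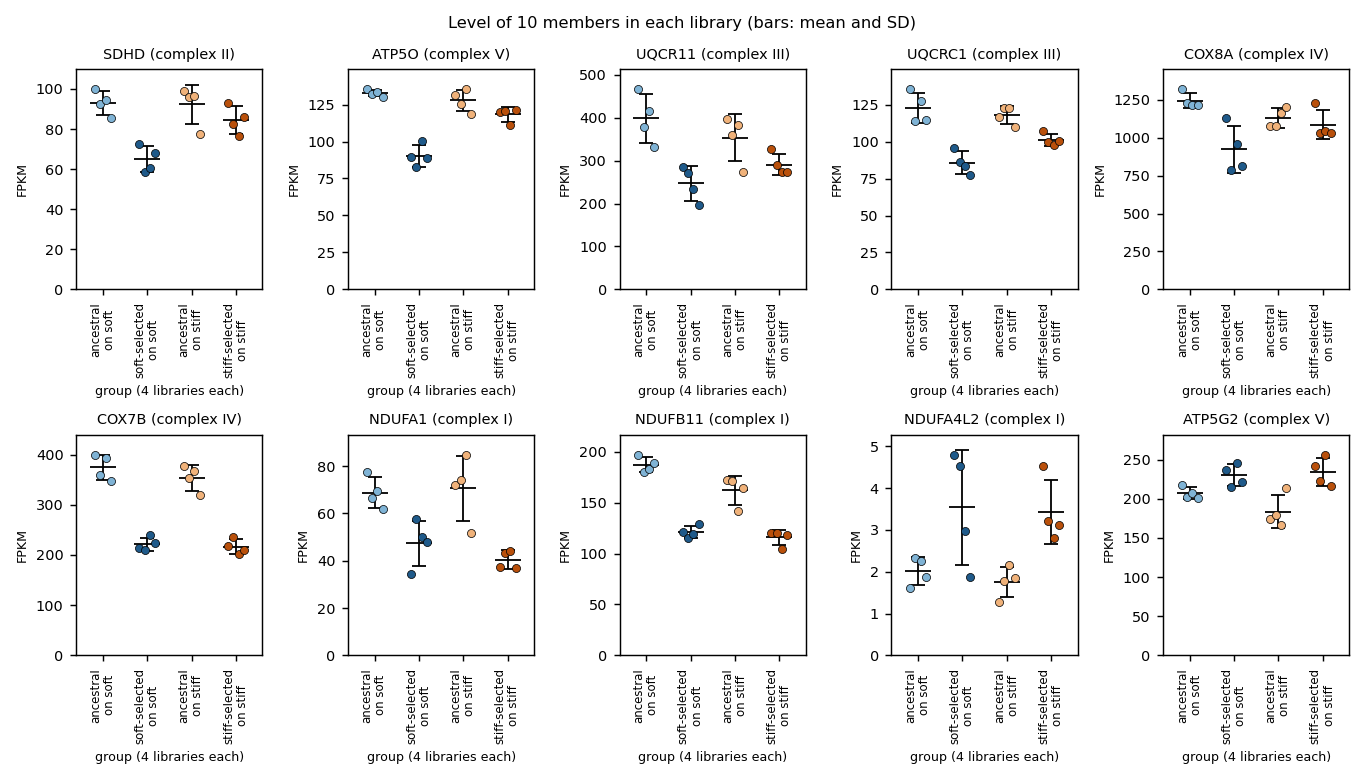
FPKM of 10 members (vertical axes from 0) in each library of the 4 groups, with the mean and SD of each group. SDHD and ATP5O are low in the soft-selected libraries alone, COX7B, NDUFA1 and NDUFB11 are low in both selected populations, and ATP5G2 and NDUFA4L2 were called higher in stiff-selected cells.

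Selection on stiff ECM gave fewer calls. Of the 83 members 11 were lower and 2 higher in stiff-selected than in ancestral cells on stiff ECM, where 10.8% of all genes tested were lower and 18.4% higher (29.1% in either direction). The 11 lower members (13.25%) were near that background. They were 6 in complex I, 4 in complex IV and 1 in complex V, with 0 in complexes II and III. They count COX7B2 of complex IV, which passed the filter through ancestral libraries alone, and without it 10 of 82 (12.2%) were lower, with 3 of 12 in complex IV, a count added after seeing the data. At an unadjusted p under 0.05, 1 of the 4 members of complex II and 2 of the 9 members of complex III differed, beside 51.7% of all genes. Median log2 fold changes were −0.20 in complex IV, −0.14 in complex I, −0.11 in complex III, −0.02 in complex V and 0.09 in complex II, against 0.05 over all genes. The number of lower members depended on single libraries, with 22 without ancestral on stiff replicate 4. It was 7 without ancestral on stiff replicate 1, 2 or 3 or stiff-selected replicate 2. The shares of all genes called in those fits are not given here.

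NDUFA1, a subunit of the membrane arm of complex I, measured 71.9, 74.3, 84.6 and 51.9 FPKM in ancestral cells on stiff ECM and 37.5, 43.3, 44.2 and 36.8 in stiff-selected cells. The groups did not overlap (−0.77 ± 0.14, limma adjusted p = 0.0003). COX7B measured 378, 353, 367 and 319 FPKM against 218, 236, 201 and 210 (−0.71 ± 0.07, limma adjusted p = 5.8e-07), and NDUFB11 measured 172, 171, 141 and 164 against 120, 121, 105 and 118 (−0.48 ± 0.06, limma adjusted p = 1.9e-05). Besides COX7B2, which is described with the isoforms, these 3 genes had the lowest fold changes among the called members. COX6C (−0.45 ± 0.10), COX7A2L (−0.36 ± 0.06), NDUFS5 (−0.27 ± 0.07) and ATP5E, the epsilon subunit of F1 (−0.37 ± 0.10), were lower as well.

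Both members that were higher on stiff ECM differ in kind. ATP5G2, 1 of 3 genes for the same c ring subunit, measured 174, 180, 167 and 214 FPKM in ancestral and 242, 223, 256 and 216 in stiff-selected cells. The lowest stiff-selected library lay just above the highest ancestral one (0.35 ± 0.07, limma adjusted p = 0.00088). NDUFA4L2, a paralogue of NDUFA4 known to be induced by hypoxia, was near the lower limit of the filter, at 1.29, 1.78, 2.15 and 1.84 FPKM against 4.54, 3.21, 2.82 and 3.12 (0.67 ± 0.18, limma adjusted p = 0.0065). These values rest on 92 reads in all 4 ancestral libraries and 143 in all 4 stiff-selected libraries. On soft ECM NDUFA4L2 measured 1.61, 2.32, 2.27 and 1.87 FPKM in ancestral and 4.79, 4.53, 2.98 and 1.86 in soft-selected cells, where the ranges overlapped (0.54 ± 0.18, limma adjusted p = 0.019).

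Lower calls in both selected populations were shared by 7 members, which are 25.93% of the 27 on soft ECM and 63.64% of the 11 on stiff ECM. The same shares over all genes tested were 54.2% and 77.7%, for 1054 genes lower in both. The 7 members were COX6C, COX7A2L, COX7B, NDUFA1, NDUFB11, and NDUFA2 and NDUFA8, the last pair being named after their values were seen. The libraries of these comparisons are separate, but all selected libraries share the code in their names. Calls on soft ECM alone do not show a difference between the populations, which needs the test of the difference itself. In that test of the effect of selection on soft minus that on stiff ECM, limma called 0 of 83 members and 0.0% of all genes, voom on recovered reads also called 0, and 15 members (18.1%) had an unadjusted p under 0.05, beside 12.9% of all genes.

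The lowest p among members in that test belonged to ATP5O, with a difference in log2 fold change of −0.45 ± 0.08 (limma adjusted p = 0.028). SDHD had −0.39 ± 0.12 (limma adjusted p = 0.18), UQCRC1 −0.30 ± 0.10 (0.21) and COX8A −0.38 ± 0.14 (0.23). COX7B, NDUFA1 and NDUFB11 had −0.05, 0.23 and −0.14. In 62 of 83 members the value was negative, beside 6684 of 12604 genes tested. The median was −0.09 in members, against −0.01 over all genes, and this count of signs was not tested.

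The direct comparison of soft-selected with stiff-selected cells called 2 of 83 members, both lower after selection on soft ECM (2.41%), where 2.59% of all genes were lower and 3.85% higher (6.43% in either direction). ATP5O measured 89.3, 82.6, 100 and 89 FPKM in soft-selected and 120, 120, 111 and 122 in stiff-selected cells, with no overlap (−0.39 ± 0.06, limma adjusted p = 0.00043). SDHD measured 72.6, 58.7, 60.6 and 68.3 FPKM against 92.8, 82.7, 76.4 and 86.3, also with no overlap (−0.38 ± 0.08, limma adjusted p = 0.0064). Without the filter, without a trend in the prior, or with these groups alone in the fit, 1 of the 2 calls was left, and it was ATP5O each time. The other 3 subunits of complex II had log2 fold changes of −0.06 (SDHA), −0.19 (SDHB, limma adjusted p = 0.035) and −0.06 (SDHC). All 4 medians of complexes I, II, III and V were at or under −0.04, while complex IV had a median of 0.01.

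Stiffness alone, compared within ancestral cells, gave no calls among members. Limma called 0 of 83 members here, whereas 7.54% of all genes were higher and 3.87% lower on soft ECM (11.4% in either direction). Voom on recovered reads called 0 members as well, and 12 members (14.5%) had an unadjusted p under 0.05, beside 38.2% of all genes. Medians by complex lay between 0.01 and 0.09. Without ancestral on stiff replicate 4, 2 members were called higher and 1 lower. They were ATP5G2 (0.25 on the log2 scale), NDUFA7 (0.41) and NDUFS6 (−0.51), the latter 2 being named after their values were seen. The share of all genes called without that library is not given here, so these calls have no background beside them. This library was the lowest of its group for some members, such as SDHD, UQCR11, NDUFA1 and COX6C. It was the highest for others, such as NDUFS8, COX8A, UQCR10 and UQCRFS1.

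The position of the genes moved with the calls. COX7B, NDUFA1 and NDUFB11 are the 3 members on chromosome X, and all 3 were lower in both selected populations. On soft ECM NDUFA1 measured 77.5, 66.4, 69.5 and 61.7 FPKM in ancestral and 34.4, 57.5, 49.8 and 47.9 in soft-selected cells (−0.55 ± 0.14, limma adjusted p = 0.0036). Over all 397 genes tested on chromosome X, 210 were lower and 18 higher after selection on soft ECM (median −0.38), and 235 were lower and 12 higher after selection on stiff ECM (median −0.43). In soft-selected against stiff-selected cells the median of chromosome X was 0.06, and in ancestral cells on soft against stiff ECM it was 0.04. PDHA1, the pyruvate dehydrogenase subunit on the same chromosome, was lower in both selected populations too (−0.49 and −0.54).

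After the median of each chromosome had been subtracted, COX7B kept its call on soft (−0.38) and stiff ECM (−0.29). NDUFB11 (−0.25 and −0.06) and NDUFA1 (−0.17 and −0.36) lost both. Outside chromosome X, 24 of 80 members were lower on soft ECM (median −0.21), and 8 lower and 2 higher on stiff ECM (median −0.12). With chromosome medians subtracted, 31 members were lower on soft ECM (37.3%, beside 17.4% of all genes) and 16 on stiff ECM (19.3%, beside 13.3%). ATP5O lies on chromosome 21, where 47 of 110 genes were lower in soft-selected than in ancestral cells (median −0.21) and 23 were lower in the direct comparison of both selected populations (median −0.16). With the medians subtracted, the log2 fold change of ATP5O in that direct comparison was −0.20 and was no longer called. Against ancestral cells on soft ECM it was then −0.35 and still called (limma adjusted p = 4.5e-05). SDHD kept its call in the direct comparison (−0.34, limma adjusted p = 0.007). The other members on chromosome 21, NDUFV3 and ATP5J, had log2 fold changes of 0.01 and −0.10 on soft ECM.

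**Figure D4:**
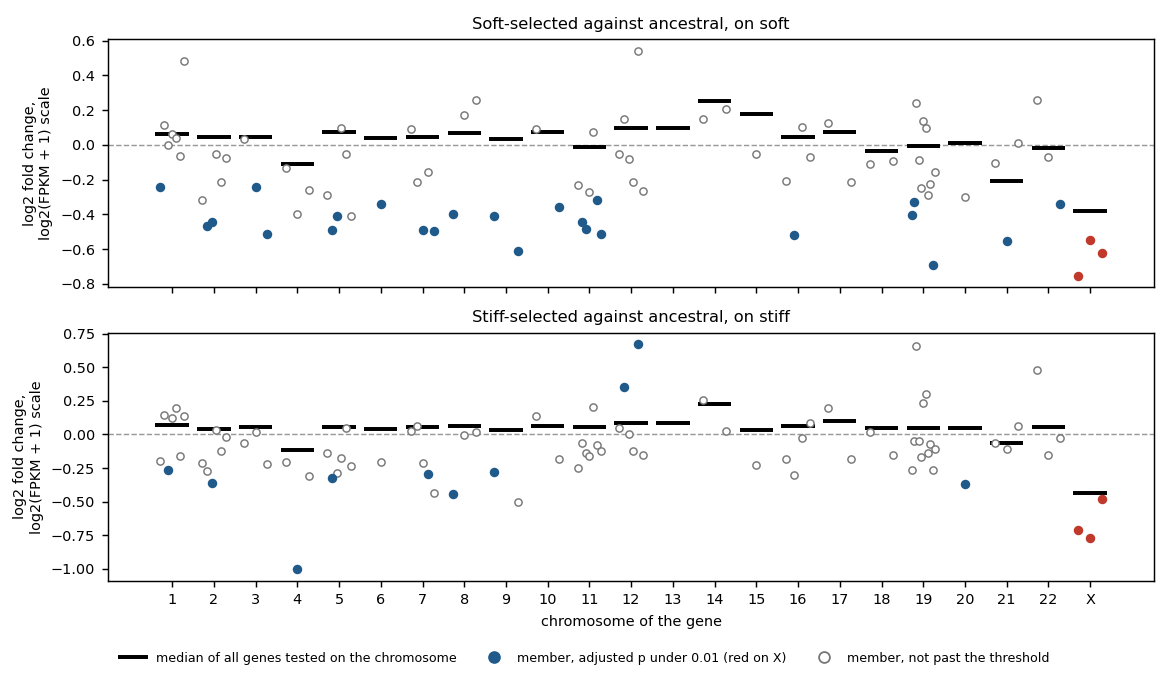
Log2 fold change of each member by the chromosome of its gene after selection on soft (top) and stiff (bottom) ECM, with the median of all genes tested on that chromosome as a black line. The 3 members on chromosome X lie under zero in both panels, where the chromosome medians are −0.38 and −0.43.

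OXPHOS subunits are encoded by short genes, and coding length moved with the fold change across all genes. Members had a median coding length of 438 bases, against 1408 over all genes tested, and 54 of the 83 were among the 1261 genes of at most 550 bases. Those 1261 genes had a median log2 fold change of −0.08 on soft ECM and −0.05 on stiff ECM, against −0.26 and −0.17 for the 54 members among them. The 1261 genes of 3485 bases or more had medians of 0.13 and 0.10. After the trend with coding length had been removed from each library, 20 members (24.1%, beside 15.3% of all genes) were lower and 2 higher on soft ECM (NDUFA4L2 and UQCRHL), and 7 (8.4%, beside 10.8%) were lower and 2 higher on stiff ECM. The log2 fold changes on soft ECM were then −0.65 for COX7B, −0.56 for UQCR11, −0.51 for ATP5O and −0.47 for SDHD, all still called. In complex IV, COX7A2, COX6B1 and COX6C then lost their calls on soft ECM (limma adjusted p = 0.011, 0.02 and 0.021). COX5B, COX7A2L, COX7B and COX8A kept theirs. The part of RNA quality or library preparation in this trend was not tested.

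**Figure D5:**
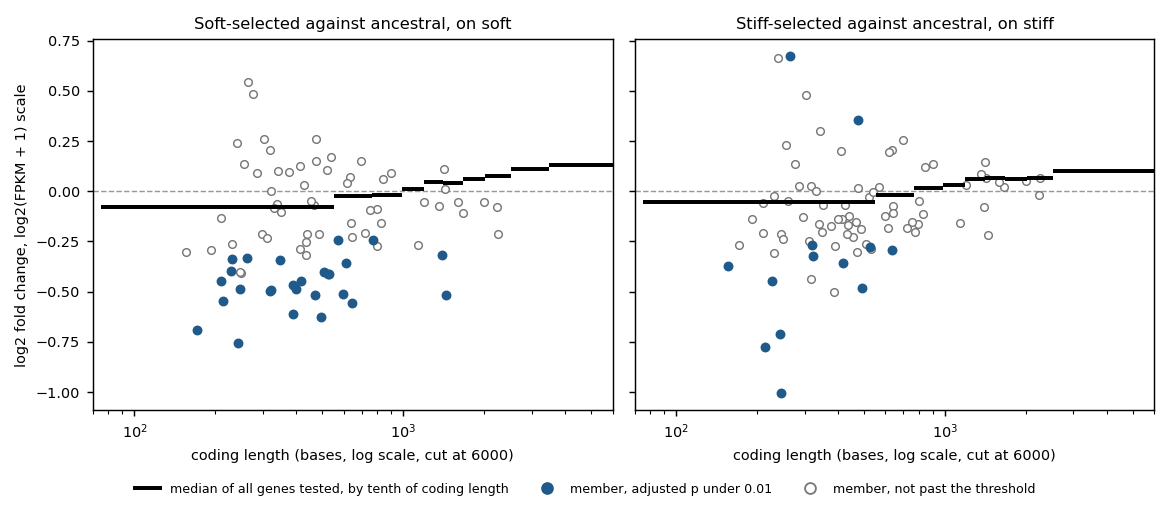
Log2 fold change of each member against its coding length (log axis) after selection on soft (left) and stiff (right) ECM, with medians of all genes tested in 10 classes of coding length as black lines. Most members are among the shortest genes, whose medians are −0.08 and −0.05, and the members there have medians of −0.26 and −0.17.

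Markers of luminal epithelium moved with the same comparisons. Of 5 markers 4 were lower in soft-selected cells (GATA3, ELF3, KRT19 and KRT8), beside 15.4% of all genes tested. In stiff-selected cells 2 were lower (GATA3 and ELF3), beside 10.8% of all genes. KRT8 (371 to 598 FPKM), KRT18 (354 to 472.1) and KRT19 (222 to 352.8) were high in every library of this line. The summed level of the 5 markers was 1230 to 1378 FPKM in ancestral and 1065 to 1153 in soft-selected cells on soft ECM. On stiff ECM it was 1164 to 1363 in ancestral and 1088 to 1287 in stiff-selected cells. Blood cell markers summed to at most 4.131 FPKM and fibroblast markers to at most 6.192 FPKM in any library, of which CD14 was lower in both selected populations, PDGFRB was lower in soft-selected cells and COL1A1 was higher in both. The part of these genes in the levels of OXPHOS subunits was not tested.

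Paired isoforms were expressed almost wholly as their common form. COX4I1, COX6A1, COX6B1 and COX8A had group means of 86.35 FPKM or more, while COX4I2, COX6A2, COX6B2 and COX8C, which are used in particular tissues, had group means under 0.3 FPKM. COX7A1, known from muscle, had group means of 9.221 to 15.75 FPKM beside 295.1 to 374.6 for COX7A2, and it was not called (0.24 ± 0.24 on soft and 0.66 ± 0.24 on stiff ECM, limma adjusted p = 0.43 and 0.035). COX7B2, a testis form, passed the filter through 4 libraries, all of them ancestral, so that the filter itself favoured a lower value after selection. It measured 1.12, 1.84, 1.42 and 0.906 FPKM in ancestral cells on stiff ECM and 0, 0.538, 0.112 and 0 in stiff-selected cells, from 65 and 6 reads, and these values are a description with no test. UQCRHL was at 0.846 to 2.64 FPKM beside its near copy UQCRH, and ATP5L2 at 0.134 to 2.61 FPKM beside ATP5L, so that reads of these pairs may be shared.

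Genes that build or regulate the complexes did not share 1 direction. These lists, like the members, were chosen with earlier results known, and the counts are beside 15.4% lower and 21.5% higher of all genes on soft ECM and 10.8% and 18.4% on stiff ECM. Of 16 assembly factors of complex I, 2 were lower and 1 higher on soft ECM, and 1 lower and 3 higher on stiff ECM. NDUFAF4 was higher in both (0.57 ± 0.09 and 0.50 ± 0.09, limma adjusted p = 4.4e-05 and 0.00021), and TMEM126B, which helps to build the membrane arm, was lower on soft ECM (−0.34 ± 0.07, limma adjusted p = 0.00058). Of 34 assembly factors of complexes II to V, 7 were lower and 2 higher on soft ECM, and 5 lower and 5 higher on stiff ECM. SDHAF1, which is needed to insert iron-sulfur clusters into SDHB, was lower in both (−1.04 ± 0.15 and −0.62 ± 0.15), at 7.742, 6.214, 3.217 and 3.703 FPKM on average in ancestral cells on soft and stiff ECM and in soft-selected and stiff-selected cells. BCS1L, which inserts the Rieske protein into complex III, was higher in both (0.50 ± 0.07 and 0.37 ± 0.07).

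Of 18 regulators of mitochondrial biogenesis, 6 were higher and 1 lower on soft ECM, and 3 higher and 1 lower on stiff ECM. The polymerase subunit POLG2 (0.56 ± 0.08 and 0.49 ± 0.08) and the coactivators PPARGC1B (0.59 ± 0.11 and 0.59 ± 0.11) and PPRC1 (0.41 ± 0.08 and 0.33 ± 0.08) were higher in both. GABPA, the ETS factor of this list, was lower in both (−0.37 ± 0.07 and −0.24 ± 0.07, limma adjusted p = 0.00022 and 0.0082), and it lies on chromosome 21. Of 18 genes of the citric acid cycle and pyruvate dehydrogenase, 2 were lower and 1 higher on soft ECM, and 4 lower and 1 higher on stiff ECM, with IDH3G and PDHA1 on chromosome X among the lower ones on stiff ECM. Of 13 genes of coenzyme Q synthesis, 1 was lower and 3 higher on soft ECM, and 1 lower and 2 higher on stiff ECM. Of 5 other OXPHOS genes that the symbols leave out, USMG5 of complex V was lower in both (−0.29 and −0.25). ATPIF1, an inhibitor of complex V, was lower on stiff ECM (−0.36), and CYC1 of complex III was higher on stiff ECM (0.26).

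In the other comparisons few genes of these lists (of 5, 13, 16, 18, 18 and 34 genes) were called. Over all genes tested, 6.43% were called in either direction between the selected populations, and 11.4% between stiffnesses in ancestral cells. Soft-selected cells had lower TMEM126B (−0.35), COA7 (−0.35) and DLAT (−0.30) and higher COA5 (0.26) than stiff-selected cells. In ancestral cells, CYCS, NDUFAF2, LRPPRC, GABPB1 and TFAM were lower on soft than on stiff ECM and NDUFAF3 was higher, with log2 fold changes between −0.57 and 0.32. The test of the effect of selection on soft minus that on stiff ECM called 0 genes of these lists and 0.0% of all genes.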

How the data were processed

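RNA-seq was measured in 16 libraries, 4 in each of 4 groups taken from the sample labels. The authors deposited FPKM values of 19468 genes with symbols and identifiers, and every sample column was used (0 unused). Alignment with STAR to hg19 is named in the submitters' processing notes, with no versions, and how reads were counted is not given in the sources used here. Reads could be recovered exactly, within 0.001 reads, for 100% of genes, because each FPKM is a whole number of steps. No replicate was a copy of another (chi-square per degree of freedom of 4.36 to 47.4 between the reads of replicates). Recovered gene lengths were multiples of 3 for 84.2% of genes tested and are called coding lengths.

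The log2(FPKM + 1) values of genes that reached 1 FPKM in 4 or more libraries were fitted by limma 3.58.1 (R 4.3.3), with a trended prior, as 4 group means and 5 contrasts. Calls are at a Benjamini-Hochberg adjusted p under 0.01 over all genes. The steps were tested on simulated data with known changes. Chromosomes came from RefSeq (GRCh38.p14) and coding GC content from GENCODE for 99.17% of genes tested, by gene identifier or symbol, with no coordinates carried over from hg19. Python 3.11.15 with pandas 2.3.3 and matplotlib 3.10.9 did the rest.

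The members and all gene lists were chosen with earlier results of these data known. Named members were, per complex and comparison, up to 2 with the largest and 2 with the smallest fold change among the called ones, plus core subunits of complexes I to V, isoform pairs and members that are no structural subunit. The value of 1 gene that this rule names is not reported here. Of other lists, up to 4 called genes with the smallest p per comparison could be named. Alternatives covered the pseudocount, the filter, the scaling, the fit, the threshold, voom, trends with coding length and GC content, and leaving out each library, and the subtraction of chromosome medians was added after seeing the data.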

Additional observations from a re-analysis of the deposited data

Results flagged for a closer look

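Single libraries stood apart from the other 3 of their group, by Dixon's ratio at the 95% level, in 16 of 208 groups of values examined, where chance flags about 1 in 20 groups, or 10.4 here. In ancestral cells on soft ECM replicate 1 was the highest library for COX8A (1320 FPKM, others at most 1231), COX6A1 (670.5, others at most 600.8), UQCRH (148.4, others at most 131.0) and the summed level of complex V (4252, others at most 4033). In ancestral cells on stiff ECM replicate 4 was the lowest for SDHD (77.57 FPKM, others at least 96.16) and the highest for UQCR10 (253.0, others at most 216.1) and UQCRFS1 (174.7, others at most 147.9), and replicate 3 was the highest for ATP5B (406.3, others at most 377.0). In soft-selected cells replicate 3 was the lowest for ATP5A1 (222.5 FPKM, others at least 245.7) and replicate 2 the highest for NDUFV2 (114.4, others at most 105.6). In stiff-selected cells replicate 3 was the lowest for ATP5O (111.2 FPKM, others at least 120.0) and NDUFB11 (104.7, others at least 118.0), and replicate 4 the lowest for COX6A1 (489.2, others at least 572.3) and SDHB (100.1, others at least 111.0). Replicate 1 of that group was the highest for COX8A (1231 FPKM, others at most 1046) and COX5B (176.0, others at most 166.1).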

How the results depend on the processing

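After selection on soft ECM, 27 members were lower in the main result and 18 to 30 when single libraries were left out, 31 under median of ratios scaling, 33 with a replicate block and 4 under the 1.5-fold limit. The count of higher members there was 0 and became 1 with only the compared groups, 2 at an adjusted p under 0.05, 2 without the length trend, and 0 to 1 when single libraries were left out. After selection on stiff ECM, 11 lower members became 21 at an adjusted p under 0.05, 3 under the 1.5-fold limit, 7 without the length trend, and 7 to 22 when single libraries were left out. The 2 higher members there became 6 at 0.05, and 1 without a filter, under the 1.5-fold limit, with chromosome medians removed and under both voom settings, and 1 to 2 when single libraries were left out. Between selected populations, 2 lower members became 12 at 0.05, 0 under the 1.5-fold limit, 1 without a filter, with only these groups or without the trended prior, and 1 to 3 when single libraries were left out, with 1 higher member at 0.05. In ancestral cells 1 member was higher at 0.05, and 0 to 2 were higher and 0 to 1 lower when single libraries were left out. In the difference between the effects of selection, 1 member was lower at 0.05. Most of these counts have no share of all genes called under the same setting beside them, and so do those of other pathway genes below. Without that share, a count cannot tell a shift of the members from a shift over all genes.

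The median of complex II moved from −0.01 to −0.0729 on soft ECM with chromosome medians removed. On stiff ECM it moved from 0.09 to 0.0305 under median of ratios scaling, to 0.031 under voom with those library sizes and to 0.0156 with chromosome medians removed. When single libraries were left out, the median between selected populations ran from −0.177 to −0.106 for complex II and from −0.148 to −0.0298 for complex V, and in ancestral cells from −0.0364 to 0.0634 for complex II. Other genes of the pathway called on soft ECM (27) became 46 at 0.05, 4 under the 1.5-fold limit and 21 to 32 when single libraries were left out, and on stiff ECM (29) 3 under the 1.5-fold limit and 17 to 34. Between selected populations (4) they became 2 without a filter, under TPM or without the trended prior, 0 with only these groups or the 1.5-fold limit, 17 at 0.05 and 1 to 7 when single libraries were left out. In ancestral cells (6) they became 3 without the trended prior, 19 at 0.05, 0 under the 1.5-fold limit, 12 under voom with median of ratios, 2 without the GC trend and 1 to 9 when single libraries were left out. In the difference between effects (0) 1 was called at 0.05, and 0 to 1 when single libraries were left out. Unless a construction above states it, the cause of such a shift was not tested.

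Of 32 calls of named members, 0 changed direction under any alternative, and most were lost under the 1.5-fold limit (24) and without the length trend (8). Deviations of same-numbered libraries of different groups had correlations of −0.186 to 0.306, and those of differently numbered ones −0.3941 to 0.3024. Whether a shared number stands for shared handling was not tested. With a replicate block in the fit, 33 members were lower on soft ECM and 15 on stiff ECM. No count of called members moved by more than 1.5 times with this block. Recovered reads numbered 34284794 to 55473023 per library, and members near 1 FPKM rest on few reads.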
